A study of Mus musculus with 6 samples.

Results

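Toll-like receptors and C-type lectin receptors are innate immune sensors that bind microbial products and molecules released from dying cells. The genes described here are 5 Toll-like receptor genes (Tlr2, Tlr4, Tlr7, Tlr9 and Tlr13), the co-receptor gene Cd14, the adaptor gene Myd88, and the C-type lectin genes Clec4e (Mincle), Clec4d (MCL) and Clec7a (dectin-1). They were taken by symbol from the gene list of the deposited matrices, and 9 of the 10 listed genes were measured, out of 32285 genes in all. Clec7a was not analysed here. UMIs (unique molecular identifiers, which count captured RNA molecules) were summed per library and marker-defined cell class.

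Toll-like receptor 2 at the cell surface recognises bacterial lipoproteins, and Toll-like receptor 4 recognises lipopolysaccharide that CD14 hands over to it. Both also respond to host molecules set free by tissue damage. Toll-like receptors 7, 9 and 13 sit in endosomes, need the chaperone Unc93b1 to get there, and bind single-stranded RNA, CpG DNA and bacterial ribosomal RNA. All 5 signal through MyD88 to NF-kappaB. Mincle senses mycobacterial glycolipids and the protein SAP130 of dead cells, pairs with MCL, and signals through the Fc receptor gamma chain, Syk and Card9. In an infarcted heart, neutrophils and monocytes enter the dying muscle, and both cell types are known to carry these sensors.

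The data are 10x 3' single-cell RNA sequencing of heart ventricle cells other than cardiomyocytes, from male mice aged 8 to 12 weeks. Wild-type (WT) mice were of strain C57BL/6JRj, and knockout (KO) mice carried the allele B6.Cg-Trpm4tm1.2-PG, which targets the calcium-activated cation channel gene Trpm4. Each genotype had 3 groups: 24 h after a sham operation, 24 h after the left anterior descending artery (LAD) was ligated, and 72 h after it was ligated. Each group was 1 library made from the pooled live-sorted cells of 4 mice. There is no 72 h sham group, so the 72 h libraries were compared with the 24 h ligation libraries. Each group is 1 library with no replicate, and no test was run. Every difference below compares 2 libraries, its interval covers counting error only, and the spread between mice, operations and preparations is unknown. The study compared how the 2 genotypes respond to infarction.

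Kept cells numbered 3361 to 6821 per library, with deposited totals of 20995280 to 45649061 UMIs. The KO library at ligation 72 h stood apart: its kept cells had a median of 1232 UMIs against 3049 to 7963 in the others, 57.7% of them had fewer than 1500 UMIs against at most 11%, and 38.2% lay in clusters left unnamed against at most 5.42%. Trpm4 had 8.79, 5.52 and 4.29 CPM (UMIs scaled to a library total of 1000000) in WT at sham 24 h, ligation 24 h and ligation 72 h, and 6.20, 3.46 and 2.57 CPM in KO. Which part of Trpm4 was removed is not given in the sources used here, so these 3' UMIs do not check the genotype of a library. Any 2 libraries shared between 3 and 14 cell barcodes. Monocyte/macrophage cells (674 to 2274 a library) and neutrophils (416 to 3353) were named from 14 and 10 markers that include none of the genes described here.

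The chromosome positions are those of GENCODE M21 (GRCm38), and all 9 measured genes are annotated there as protein-coding. Clec4d (ENSMUSG00000030144, chr6:123262111-123275265, plus strand) and Clec4e (ENSMUSG00000030142, chr6:123281789-123289870, minus strand) lie on opposite strands, 6523 bases apart. Tlr2 (ENSMUSG00000027995) is at chr3:83836272-83841767 on the minus strand and Tlr4 (ENSMUSG00000039005) at chr4:66827584-66930284 on the plus strand. Tlr7 (ENSMUSG00000044583, chrX:167304929-167330558, minus strand) and Tlr13 (ENSMUSG00000033777, chrX:106143204-106160493, plus strand) are X-linked. Tlr9 (ENSMUSG00000045322, chr9:106222598-106226883, plus strand) and Myd88 (ENSMUSG00000032508, chr9:119335934-119341411, minus strand) share a chromosome.

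Upstream sequence is shown for the neighbours Clec4e and Clec4d, whose levels were compared cell by cell below, and for Tlr2 and Tlr9 as a surface and an endosomal receptor with different cell distributions. Each is the stretch of the 250 bases before the RefSeq start site (build GRCm38.p6) that overlaps no GENCODE exon, read 5′ to 3′ on the gene's strand. Capitals mark matches, on either strand, to the PU.1-type motif GAGGAAG, the AP-1-type motif TGANTCA, the C/EBP-type motif TTGCNNAA or the kappaB consensus.
Clec4e, chr6:123289872-123290121: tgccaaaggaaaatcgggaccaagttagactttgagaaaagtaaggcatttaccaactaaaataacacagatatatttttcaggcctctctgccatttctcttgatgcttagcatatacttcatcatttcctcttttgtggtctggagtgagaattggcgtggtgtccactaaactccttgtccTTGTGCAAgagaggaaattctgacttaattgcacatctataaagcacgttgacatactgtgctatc
Clec4d, chr6:123261857-123262106: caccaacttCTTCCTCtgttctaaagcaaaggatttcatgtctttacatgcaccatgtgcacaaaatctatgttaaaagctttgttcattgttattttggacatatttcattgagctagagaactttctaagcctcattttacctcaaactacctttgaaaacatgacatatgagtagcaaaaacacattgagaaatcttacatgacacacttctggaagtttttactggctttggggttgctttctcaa
Tlr2, chr3:83841768-83841858: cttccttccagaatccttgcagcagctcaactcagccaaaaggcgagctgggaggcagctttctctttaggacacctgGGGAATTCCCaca
Tlr9, chr9:106222348-106222597: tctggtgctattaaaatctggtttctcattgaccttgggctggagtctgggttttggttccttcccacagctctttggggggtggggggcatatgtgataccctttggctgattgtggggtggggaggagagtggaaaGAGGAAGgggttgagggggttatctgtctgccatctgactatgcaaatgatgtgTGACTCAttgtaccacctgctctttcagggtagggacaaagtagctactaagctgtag

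Clec4e had a match to TTGCNNAA that began 66 bases before the start site, and Clec4d a match to GAGGAAG that began 241 bases before it. In Tlr2 the kappaB match began 172 bases before the start site. Tlr9 had GAGGAAG at 112 and TGANTCA at 58 bases before the start site. Of 32851 RefSeq promoters, 10.6% held GAGGAAG in the same 250-base window, 6.75% TGANTCA, 9.56% TTGCNNAA and 5.0% the kappaB consensus. Each match describes letters in this window and no binding was measured. Of the other measured genes, Tlr13 and Myd88 also had an entry in the promoter table: Tlr13 held GAGGAAG and Myd88 held none of the 4 motifs.

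By CPM, most of the genes were higher in neutrophils than in monocyte/macrophage cells. Cd14, Clec4e, Clec4d, Tlr2, Tlr4, Tlr13 and the widely detected adaptor gene Myd88 were so in each of the 6 libraries. CPM is scaled here to the UMIs of the class and library. Tlr7 was the reverse, with 22.5 to 42.0 CPM in monocyte/macrophage cells and 2.37 to 7.80 CPM in neutrophils. Tlr9 had only 180 UMIs in all monocyte/macrophage cells and 4 in all neutrophils. Counts per cell can order the classes differently, since neutrophils held fewer UMIs, a median of 2263 against 10017 in WT after sham. In that library Tlr2 had 421 UMIs in 874 neutrophils and 1115 UMIs in 1096 monocyte/macrophage cells. Cd14, Clec4d, Tlr4 and Tlr13 also had fewer UMIs per neutrophil there, while Clec4e had more, with 3983 and 2169 UMIs.

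**Figure D1:**
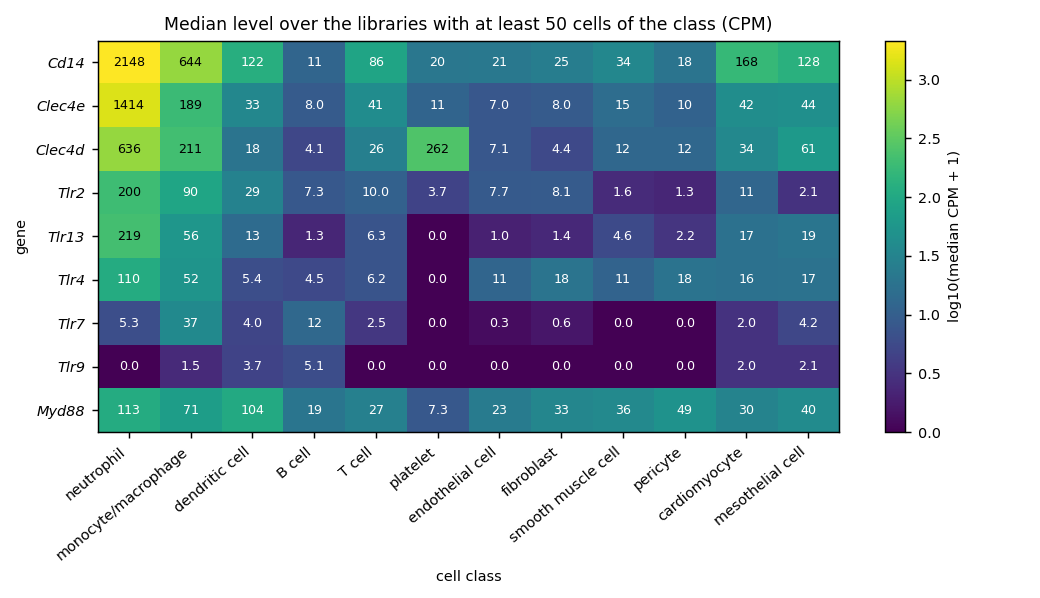
Median CPM of each gene (rows) in each cell class (columns) over the libraries that held at least 50 cells of the class, with colour showing log10(median CPM + 1). Neutrophils hold the highest value for Cd14, Clec4e, Clec4d, Tlr2, Tlr13, Tlr4 and Myd88, monocyte/macrophage cells for Tlr7, and B cells for the few Tlr9 UMIs.

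The order of the classes for Tlr9 rests on very few molecules. B cells had 5.64, 5.16 and 5.08 CPM in 3 libraries and 0 in the other, from 7 UMIs in all, and dendritic cells had 0 to 6.67 CPM from 25 UMIs. In monocyte/macrophage cells the values were 0.572 to 3.16 CPM, so these 3 classes were not separable at this depth. Endothelial cells, smooth muscle cells, T cells, platelets and pericytes had no Tlr9 UMI in any library counted. For Tlr7, B cells came next to monocyte/macrophage cells with 5.16 to 19.7 CPM from 21 UMIs.

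Myd88, the shared adaptor, had UMIs in every class. It had 92.5 to 143 CPM in neutrophils, 78.2 to 145 CPM in dendritic cells and 68.7 to 82.8 CPM in monocyte/macrophage cells. The ranges of neutrophils and dendritic cells overlapped. Fibroblasts had 21.7 to 43.8 CPM and endothelial cells 14.6 to 30.4 CPM, both below every monocyte/macrophage value.

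Tlr4 had UMIs in fibroblasts and endothelial cells of all 6 libraries. Fibroblasts had 27.6, 20.3 and 6.72 CPM in WT at sham 24 h, ligation 24 h and ligation 72 h, and 22.1, 14.6 and 16.3 CPM in KO. Endothelial cells had 9.06, 14.0 and 12.8 CPM in WT and 9.91, 22.7 and 8.11 CPM in KO, the last from 4 UMIs. Clec4d in platelets was 105 to 318 CPM over the 4 libraries with at least 50 platelets, but from 68 UMIs in all.

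Myeloid RNA was measurable in the fibroblast and endothelial sums, and its level moved with the libraries. The 10 neutrophil markers together had 2519 CPM in the fibroblasts of KO at ligation 72 h against 225 to 946 CPM in the other 5 libraries. In endothelial cells they had 4296 CPM in KO at ligation 24 h and 2553 CPM in KO at ligation 72 h, against 167 to 565 CPM elsewhere. If these markers, and the 14 macrophage markers, came with Cd14 in the ratio seen in neutrophils and macrophages of the same library, fibroblasts of KO at ligation 72 h would show 148 CPM of Cd14, and they showed 145 CPM. In the fibroblasts of the other 5 libraries that sum was 13.1 to 156 CPM, above the 5.80 to 52.6 CPM measured in each. For Clec4e in KO fibroblasts at 72 h the sum gave 75.2 CPM against 63.7 CPM measured, and for Clec4d 71.6 against 58.4 CPM. In endothelial cells of KO at ligation 24 h Clec4e was measured at 58.7 CPM, above the sum of 37.9 CPM. Tlr4 differed in WT at ligation 24 h: in fibroblasts the sum gave 10.8 CPM against 20.3 CPM measured. In WT endothelial cells at the same time it gave 2.82 CPM of Tlr4 against 14.0 CPM measured. But in KO endothelial cells at ligation 72 h the Tlr4 sum lay above the 8.11 CPM measured, which came from 4 UMIs. The macrophage list holds genes such as Apoe that other cells also make, so these sums can be too high. How much of the lectin and Cd14 signal in these classes is free RNA was not tested further, and the comparisons below stay with monocyte/macrophage cells and neutrophils.

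**Figure D2:**
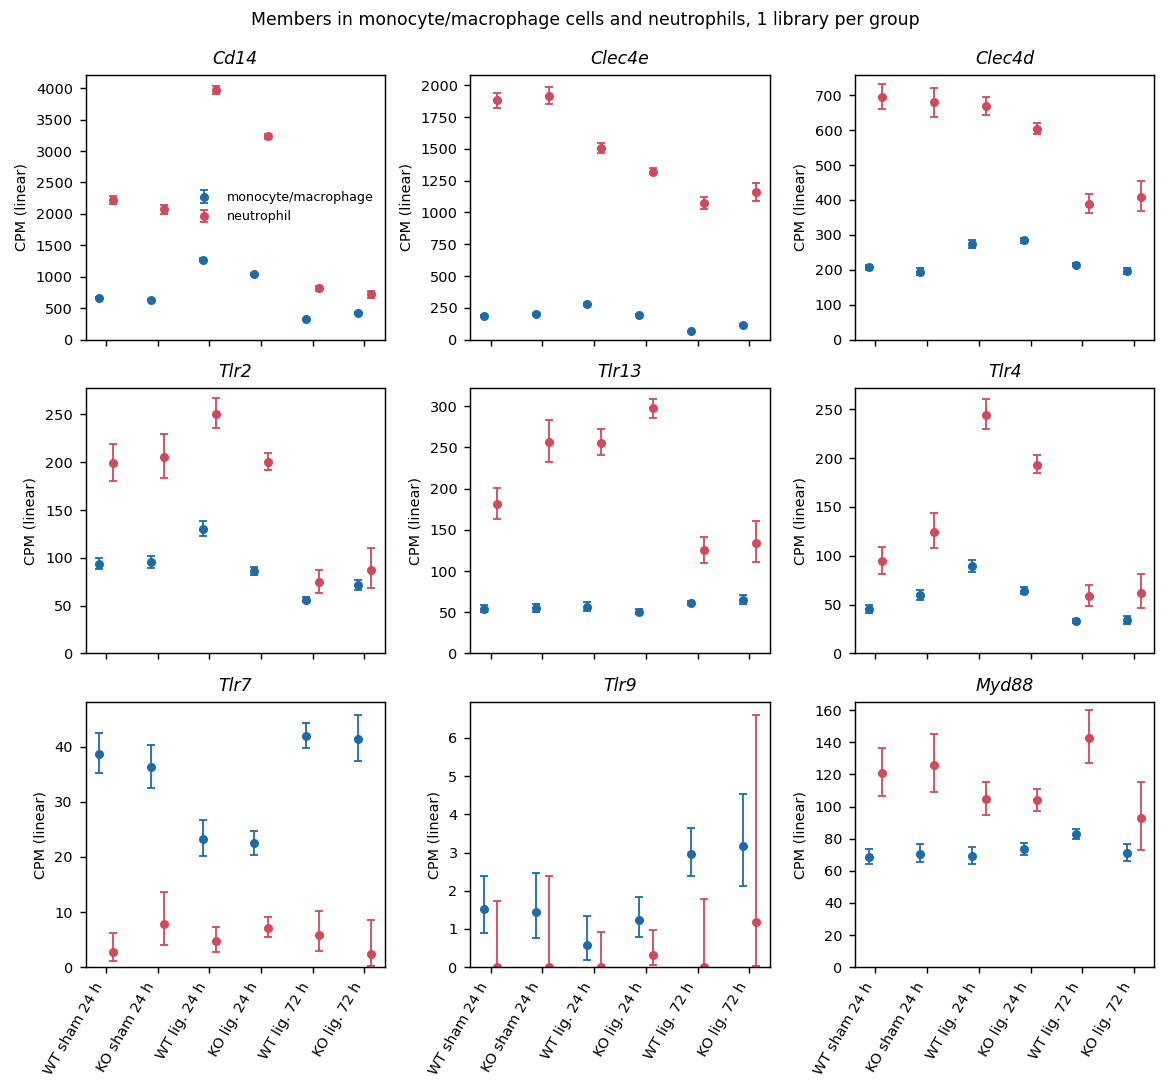
CPM of each gene (y axis, linear, its own scale in each panel) in the 6 libraries (x axis), in monocyte/macrophage cells and neutrophils, with exact 95% Poisson intervals of the UMI counts. Cd14 and Tlr4 are highest at ligation 24 h and lowest at ligation 72 h in both classes, and Tlr7 in monocyte/macrophage cells is lowest at ligation 24 h.

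At 24 h after ligation, Cd14 and Tlr4, the parts of the lipopolysaccharide receptor among these genes, were higher than after sham in the WT libraries, and Clec4d was higher in monocyte/macrophage cells of both genotypes. A gene was measured in a comparison when it had at least 50 UMIs over both libraries, and 2-fold was set as the size to count. In monocyte/macrophage cells none of 8 measured genes reached 2-fold in WT, where 6.5% of all measured genes did, and none of 8 in KO, where 8.36% did. In neutrophils 1 of 7 did so in WT, where 13.4% of all genes did and 5.07% were at least 2-fold higher, and none of 8 in KO, where 6.24% did. The 1 gene was Tlr4.

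Cd14 (ENSMUSG00000051439, chr18:36725067-36726798, minus strand) had, in monocyte/macrophage cells, 659.8 CPM (WT) and 629 CPM (KO) after sham, and 1273 and 1049.7 CPM at ligation 24 h. Both ligated libraries lay above both sham libraries, with log2 ratios of 0.95 [0.91 to 0.99] in WT and 0.74 [0.70 to 0.78] in KO, the brackets being exact 95% counting intervals. Neutrophils had 2219.7 and 2076 CPM of Cd14 after sham in WT and KO, and 3968 and 3234 CPM at ligation 24 h. Those log2 ratios were 0.84 [0.79 to 0.89] and 0.64 [0.59 to 0.69]. Clusters of WT monocyte/macrophage cells with at least 50 cells in both libraries differed in this. The cluster led by Ccl2, F10 and Ccl7 had 752 CPM after sham and 1565 CPM at ligation 24 h, that led by Ms4a7, Fcrls and Trem2 388 and 1166 CPM, and that led by Ear2, Adgre4 and Plac8 374 and 1105 CPM. The cluster led by Ccl24, Saa3 and Arg1, which held 391 of 1096 WT cells after sham, had 966.5 and 958.6 CPM. In KO the same 4 clusters had 771 and 1211, 371 and 979.8, 419 and 876, and 805 and 853 CPM.

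Tlr4 in neutrophils had 94.5 and 125 CPM after sham in WT and KO, and 244 and 193 CPM at ligation 24 h. The WT log2 ratio was 1.37 [1.15 to 1.60] and the KO ratio 0.63 [0.42 to 0.86], so the libraries of both genotypes lay above their shams. Tlr4 in monocyte/macrophage cells had 45.3 and 59.6 CPM after sham, and 89.3 and 64.1 CPM at ligation 24 h. There the log2 ratio was 0.98 [0.82 to 1.14] in WT and 0.11 [-0.04 to 0.25] in KO, and the KO sham value lay above the WT sham value.

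Tlr2, the lipoprotein receptor, had 94.0, 95.7, 130.3 and 86.1 CPM in monocyte/macrophage cells of the WT sham, KO sham, WT ligation 24 h and KO ligation 24 h libraries. It was higher than sham in WT, with a log2 ratio of 0.47 [0.35 to 0.59], and in KO the log2 ratio was -0.15 [-0.27 to -0.03], which turned to 0.12 relative to the median gene and to 0.13 after thinning to 1300 UMIs a cell. In neutrophils Tlr2 had 199, 205, 251 and 200.5 CPM in the same order, with log2 ratios of 0.33 [0.17 to 0.50] in WT and -0.03 [-0.21 to 0.14] in KO. The WT library at ligation 24 h held the highest value of the 4 in both classes.

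The neighbouring lectin genes had different ratios. Clec4e in monocyte/macrophage cells had 183, 204, 279 and 194 CPM in the WT sham, KO sham, WT ligation 24 h and KO ligation 24 h libraries, a log2 ratio of 0.61 [0.52 to 0.69] in WT. In KO the ratio was -0.07 [-0.15 to 0.01], which 4 other ways of counting turned to between 0.10 and 0.20. Clec4d had 207, 195, 274 and 285 CPM, with log2 ratios of 0.41 [0.33 to 0.49] and 0.55 [0.47 to 0.63]. Clec4d thus lay above sham in both genotypes, while the interval of Clec4e in KO spanned 0. In neutrophils Clec4e had fewer CPM after ligation, 1881 and 1917 CPM after sham and 1507 and 1322 CPM at ligation 24 h. The log2 ratios were -0.32 [-0.38 to -0.26] and -0.54 [-0.59 to -0.48], where the median gene stood at -0.23 and -0.18. Clec4d in neutrophils had 695, 679, 668 and 604 CPM, log2 ratios of -0.06 and -0.17 that were 0.18 and 0.01 relative to the median gene.

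The endosomal receptors differed by class. Tlr13 in neutrophils had 181 and 257 CPM after sham in WT and KO, and 256 and 297 CPM at ligation 24 h, log2 ratios of 0.50 [0.33 to 0.67] and 0.21 [0.06 to 0.37]. In monocyte/macrophage cells Tlr13 stayed between 50.7 and 56.7 CPM in these 4 libraries. Tlr7 in monocyte/macrophage cells had 38.7 and 36.2 CPM after sham and 23.2 and 22.5 CPM at ligation 24 h, log2 ratios of -0.74 [-0.98 to -0.50] in WT and -0.69 [-0.90 to -0.48] in KO. Myd88 had 68.7 to 73.6 CPM in those 4 libraries, with both intervals of the ratio spanning 0.

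Median ratios put these values against all genes. Over the 8 genes measured in monocyte/macrophage cells the median log2 ratio was 0.44 for WT, where all measured genes had -0.12, and -0.00 for KO, where all genes had -0.27. In neutrophils the medians were 0.33 in WT over 7 genes and -0.08 in KO over 8 genes, against -0.23 and -0.18 over all genes. Relative to the median gene, Cd14 in monocyte/macrophage cells stood at 1.06 (WT) and 1.01 (KO). The monocyte/macrophage sums also carried more neutrophil-marker RNA at ligation 24 h, 2232 CPM in WT and 1845 CPM in KO against 554 and 791 CPM after sham. That is 1.49% and 1.04% of the level in neutrophils, which at the neutrophils' own ratio would bring 58.9 and 33.7 CPM of Cd14 and 22.4 and 13.8 CPM of Clec4e.

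**Figure D3:**
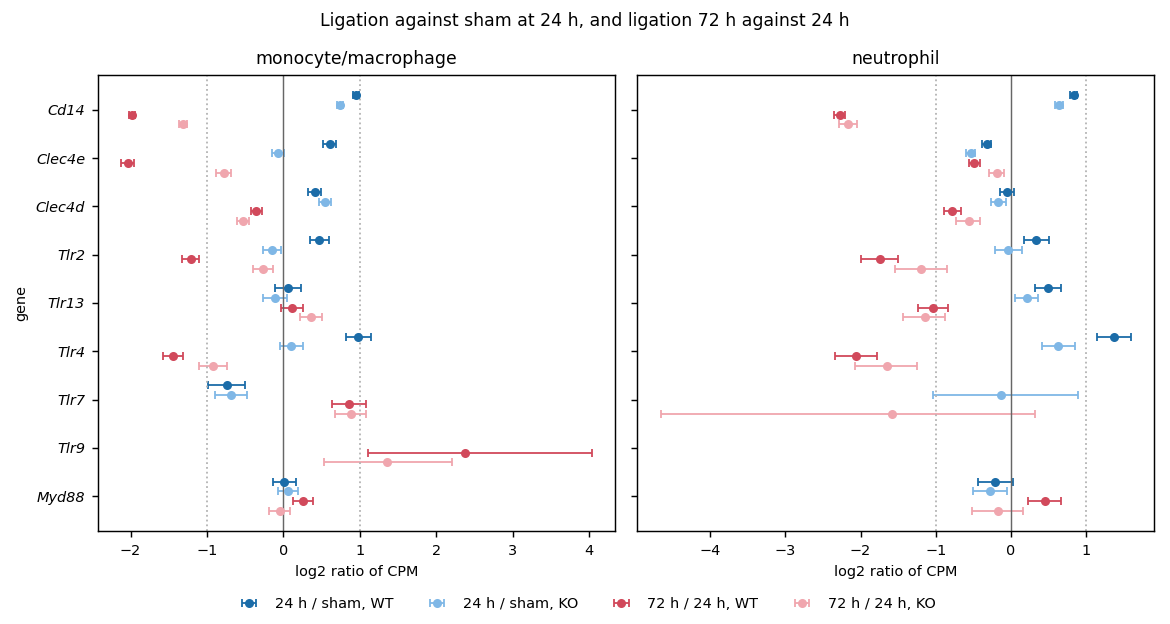
Log2 ratio of CPM (x axis) for each measured gene (rows) in monocyte/macrophage cells and neutrophils, for ligation 24 h against sham and ligation 72 h against 24 h in WT and KO, with exact 95% counting intervals and dotted lines at 2-fold. Cd14, Tlr4 and Tlr2 lie left of 0 at 72 h against 24 h in both classes and genotypes, while Tlr7 in monocyte/macrophage cells lies right of it.

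From 24 h to 72 h after ligation, the surface receptors and Cd14 were lower in both classes and genotypes, while the endosomal receptors Tlr7 and Tlr9 were higher in monocyte/macrophage cells. In WT monocyte/macrophage cells 5 of 9 measured genes reached 2-fold, where 18.6% of all genes did. Of these, Cd14, Clec4e, Tlr2 and Tlr4 were lower, where 7.33% of all genes were at least 2-fold lower, and Tlr9 was higher, where 11.2% were at least 2-fold higher. For KO monocyte/macrophage cells, 2 of 9 reached 2-fold, where 10.3% of all genes did: Cd14 was lower, where 3.5% were, and Tlr9 was higher, where 6.84% were. In WT neutrophils 4 of 7 reached 2-fold, where 39.3% of all genes did, and all 4 (Cd14, Tlr2, Tlr4 and Tlr13) were lower, where 6.77% were. In KO neutrophils 5 of 8 reached 2-fold, where 34.5% of all genes did, and those 5 were lower, where 5.4% were: the same 4 genes and Tlr7, whose KO count at 72 h was 2 UMIs.

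Cd14 in neutrophils was 818 (WT) and 721 CPM (KO) at ligation 72 h, under both sham libraries. Against ligation 24 h the log2 ratios were -2.28 [-2.35 to -2.21] and -2.16 [-2.28 to -2.05]. Monocyte/macrophage cells had 323 and 422 CPM of Cd14, log2 ratios of -1.98 [-2.02 to -1.94] and -1.31 [-1.36 to -1.26]. Tlr4 had 58.8 and 61.7 CPM in neutrophils and 32.8 and 33.9 CPM in monocyte/macrophage cells at 72 h, so the genotypes were close to each other and below their shams. Its log2 ratios were -2.05 [-2.34 to -1.78] and -1.65 [-2.08 to -1.25] in neutrophils, and -1.44 [-1.58 to -1.31] and -0.92 [-1.10 to -0.74] in monocyte/macrophage cells.

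Tlr2 followed the same order, with 74.9 and 87.8 CPM in neutrophils and 56.2 and 71.6 CPM in monocyte/macrophage cells of WT and KO at 72 h. The neutrophil log2 ratios were -1.74 [-2.0 to -1.50] and -1.19 [-1.55 to -0.86], the KO value being -0.41, under 2-fold, without doublet removal. For monocyte/macrophage cells the ratio was -1.21 [-1.32 to -1.10] in WT, and -0.27 [-0.40 to -0.14] in KO, where the level at 24 h was lower. After thinning to 1300 UMIs a cell these ratios were -1.10 and -0.97. Clec4e in monocyte/macrophage cells had 68.0 CPM in WT and 113 CPM in KO, log2 ratios of -2.03 [-2.12 to -1.95] and -0.78 [-0.88 to -0.68]. In neutrophils Clec4e had 1075 and 1159 CPM, and Clec4d 389 and 409 CPM, each below the 24 h library of its genotype, though without doublet removal the KO ratio of Clec4e turned from -0.19 to 0.19. Tlr13 in neutrophils had 125 and 134 CPM, log2 ratios of -1.03 [-1.24 to -0.83] and -1.15 [-1.43 to -0.88] that were -0.73 and -0.92 without doublet removal, but in monocyte/macrophage cells it was 61.1 and 65.1 CPM, the highest values of that class.

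At 72 h Tlr7 in monocyte/macrophage cells had 42.0 (WT) and 41.4 CPM (KO), log2 ratios of 0.85 [0.64 to 1.08] and 0.88 [0.68 to 1.08] against 24 h. Both values were close to the 38.7 and 36.2 CPM of the sham libraries, so the 24 h libraries were the low ones. Tlr9, the CpG DNA receptor, had 91 UMIs at 72 h against 5 at 24 h in WT, and 29 against 24 in KO. As levels these were 2.97 against 0.572 CPM, a log2 ratio of 2.38 [1.10 to 4.03], and 3.16 against 1.23 CPM, a log2 ratio of 1.36 [0.53 to 2.2] that was 0.82 as a mean over cells. Myd88 in these cells had 82.8 (WT) and 71.3 CPM (KO), and the WT value was the highest of the 6.

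Medians over the measured genes in monocyte/macrophage cells were -0.35 (WT) and -0.27 (KO), against 0.03 and 0.09 over all genes. In neutrophils they were -1.03 and -1.17, against 0.55 and 0.52 over all genes. That shift of the median gene means that a neutrophil gene at an equal CPM in both libraries lies below most others, and Myd88 in WT neutrophils, at 143 CPM and a log2 ratio of 0.45, lies at -0.10 against the median gene.

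Clusters found without the genes described here show where in each class the RNA lay. Neutrophils formed 4 clusters, led by Il1rn, Ccl3 and Tnf, by Retnlg, Wfdc21 and Lcn2, by Siglecf, Cxcr4 and Ptpn22, and by the interferon-induced genes Ifit1 and Ifit3b with Gm13822. At ligation 72 h the Siglecf-led cluster held 601 of 946 WT neutrophils and 282 of 416 KO neutrophils, against 20 of 1132 and 136 of 3353 at ligation 24 h. That cluster had 406 CPM of Cd14 in WT and 485 CPM in KO at 72 h, 40.3 and 31.0 CPM of Tlr2, and 211 and 269.8 CPM of Clec4d. The Il1rn-led cluster of WT had 4577 CPM of Cd14 at ligation 24 h and 2437 CPM at 72 h. Clec4d in that cluster had 744 CPM at 24 h and 822 CPM at 72 h in WT, and 683 and 708 CPM in KO. Both 72 h values of Clec4d lay above the 24 h values there, while in the sum over all neutrophils they lay below. The Il1rn-led cluster held only 108 WT and 59 KO cells at 72 h. No counting interval is given for these cluster values, so the direction within the cluster is uncertain.

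In each library the Il1rn-led neutrophils had the highest Clec4e value of the neutrophil clusters, at 1646 to 2753 CPM over the 6 libraries. The Siglecf-led ones had 814 to 1681 CPM, a range that overlaps it, the Ifit1-led ones 1176 to 1390 CPM and the Retnlg-led ones 929 to 1239 CPM. Among monocyte/macrophage clusters Clec4e had 225 to 286 CPM in the cluster led by Ear2, Adgre4 and Plac8 in all 6 libraries, and 5.82 to 32.6 CPM in the cluster led by Mgl2, Hpgd and Cbr2, which carries the resident-macrophage markers Lyve1 and Folr2. Clec4d was also low in that cluster, with 27.6 to 69.8 CPM in 3 of its 4 libraries and 170 CPM in KO at ligation 24 h. In contrast, Tlr7 in the Mgl2-led cluster had 82.8 and 76.2 CPM after sham in WT and KO, the highest Tlr7 values among the 11 clusters of both classes.

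The Ear2-led cluster had 57.2 to 59.7 CPM of Tlr7 in 5 of 6 libraries, with 34.7 CPM in KO at ligation 24 h. The Ccl2-led cluster had 23.5 CPM of Tlr7 after sham, 12.2 CPM at ligation 24 h and 28.7 CPM at 72 h in WT. A cluster led by Cxcl10, Ccl8 and Ms4a4c, with interferon-induced genes among its leaders, had at least 50 cells only at ligation 72 h, 534 in WT and 170 in KO. It had 58.8 and 62.6 CPM of Tlr7, 5.67 and 7.37 CPM of Tlr9 and 129 and 98.2 CPM of Myd88. The cycling cluster, led by Ube2c and Birc5, also reached 50 cells only at 72 h, with 189 and 200.3 CPM of Cd14.

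**Figure D4:**
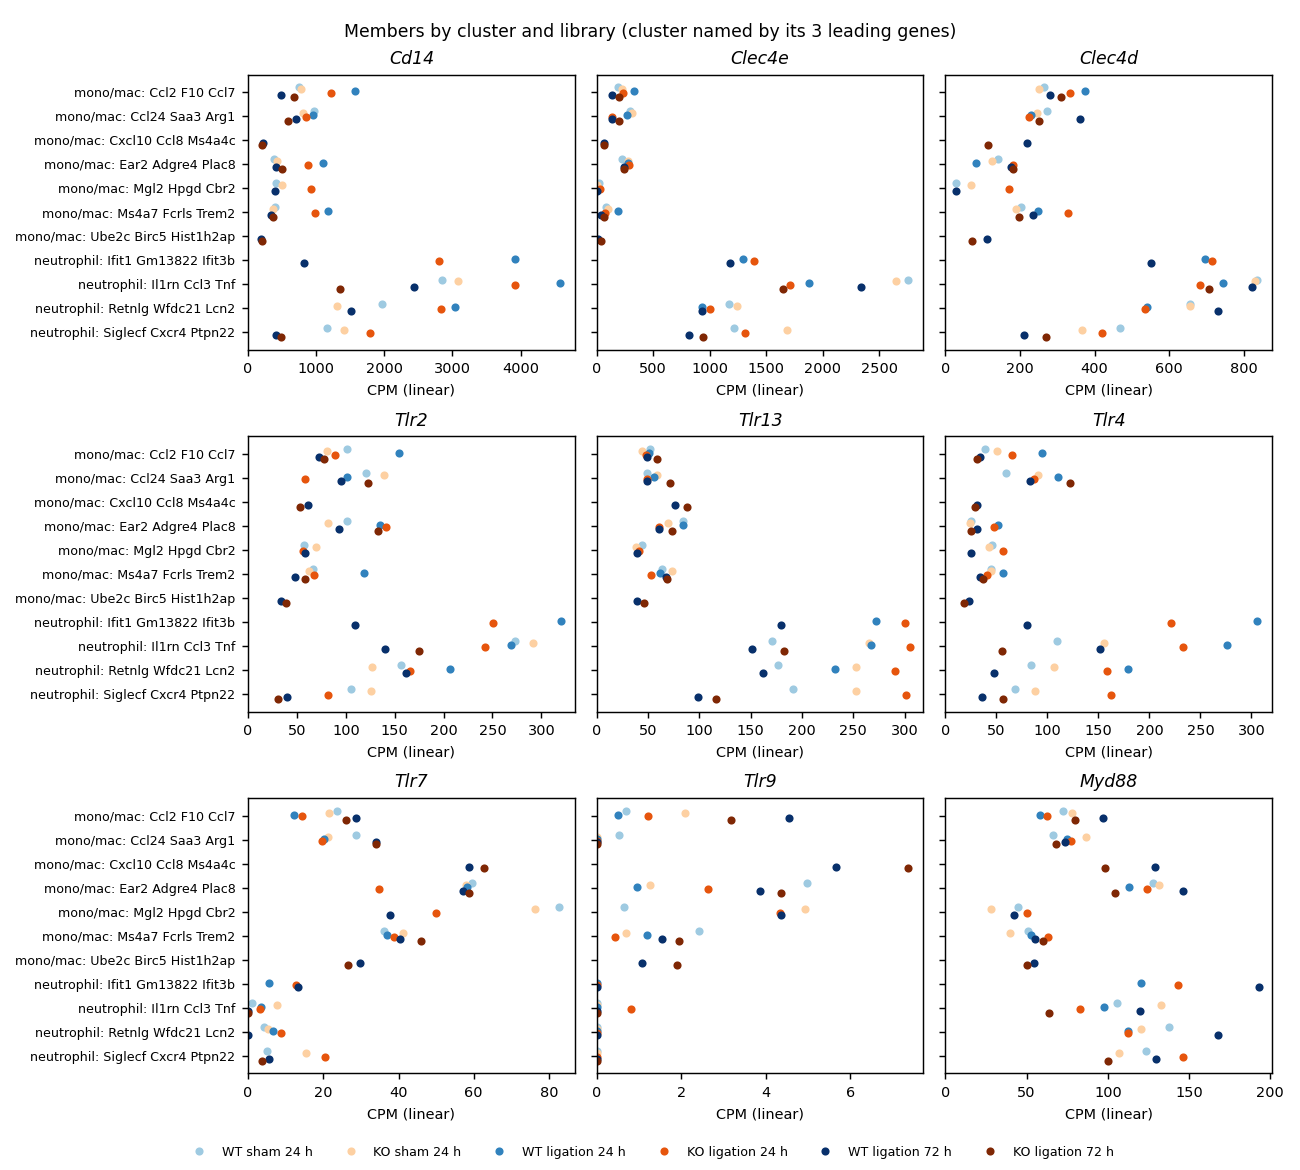
CPM (x axis, linear) of each gene in the clusters of monocyte/macrophage cells and neutrophils (rows, named by 3 leading genes), with 1 point for each library that held at least 50 cells of the cluster. The Il1rn-led neutrophils hold the highest Clec4e value of each library, from 1646 to 2753 CPM, and the Siglecf-led neutrophils at 72 h hold the lowest neutrophil Cd14 values, 406 and 485 CPM.

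Because Mincle and MCL pair at the cell surface, detection of both genes in the same cell was examined after thinning each cell to 1000 UMIs. In neutrophils at ligation 72 h, 34.3% of WT cells with a Clec4e UMI also had a Clec4d UMI, against 21.4% of cells without one, and in KO 37.2% against 23.8%. After sham the WT shares were 43.8% and 45.1%, and the KO shares 46.7% and 42.9%. Among monocyte/macrophage cells Clec4d was found in 20.5% to 28.7% of cells with a Clec4e UMI and in 13.1% to 21.9% of the others, higher in the former in each library. Cells of different clusters were counted together, so these shares also hold differences between clusters. In fibroblasts after sham, which should lack both genes, the thinned share with a Clec4e UMI was 0.552% in WT and 0% in KO, at median depths of 8812 and 8884 UMIs, against 64.3% and 67.0% in neutrophils at 2263 and 2169.5 UMIs. Over the 6 libraries the thinned fibroblast share reached 7.0% for Clec4e and 7.47% for Clec4d, so this background was not low in every library.

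KO and WT libraries differed by less than 2-fold for every measured gene in both classes. After sham, none of 8 genes in monocyte/macrophage cells and none of 7 in neutrophils reached 2-fold, where 2.16% and 1.06% of all genes did. At ligation 24 h none of 8 did in either class, where 1.81% and 3.25% of all genes did. At ligation 72 h none of 9 and none of 7 did, where 2.41% and 1.48% did. A count of none says that no ratio passed 2-fold, not that the genotypes were alike.

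At ligation 24 h the surface receptors, Cd14 and Clec4e were lower in KO than in WT monocyte/macrophage cells. The log2 ratios were -0.60 [-0.71 to -0.49] for Tlr2, -0.52 [-0.59 to -0.45] for Clec4e, -0.48 [-0.61 to -0.35] for Tlr4 (-0.14 after thinning) and -0.28 [-0.31 to -0.24] for Cd14. Clec4d, at 0.05 [-0.02 to 0.12], and Tlr7, at -0.05 [-0.29 to 0.20], had intervals that span 0. Neutrophils of the same libraries had -0.34 [-0.45 to -0.22] for Tlr4, -0.32 [-0.43 to -0.21] for Tlr2 and -0.30 [-0.32 to -0.27] for Cd14. Tlr13 was higher in KO neutrophils, at 0.22 [0.11 to 0.32]. The medians of -0.22 in monocyte/macrophage cells and -0.17 in neutrophils stood against -0.12 and 0.05 over all genes.

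At ligation 72 h the order was turned for several of these genes. Clec4e in monocyte/macrophage cells was higher in KO at 0.73 [0.63 to 0.84], Cd14 at 0.39 [0.33 to 0.44] and Tlr2 at 0.35 [0.22 to 0.48], and Tlr4 was at 0.05 [-0.14 to 0.23]. Clec4d was slightly lower at -0.12 [-0.20 to -0.05], and Myd88 at -0.22 [-0.34 to -0.09]. In neutrophils Myd88 was lower in KO at -0.63 [-1.01 to -0.26] from 78 UMIs, and Cd14 at -0.18 [-0.32 to -0.05]. The KO library at 72 h is the shallow one, and its monocyte/macrophage cells had a median of 4112 UMIs against 11841.5 in WT. After thinning to 1300 UMIs a cell, Clec4e was at 0.49 and Cd14 at 0.22, but Tlr2 turned to -0.43 and Tlr4 to -0.42. The part of free RNA in these values was not tested. Within clusters the direction at 72 h held in the Ccl2-led cells, with 194 CPM of Clec4e in KO against 138.5 CPM in WT, but the Ear2-led cells had 244 and 246 CPM.

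After sham, Tlr4 was higher in KO at 0.40 [0.22 to 0.57] in monocyte/macrophage cells and at 0.40 [0.11 to 0.69] in neutrophils, and Tlr13 was higher in KO neutrophils at 0.50 [0.29 to 0.71]. Clec4e was at 0.15 [0.06 to 0.24] in monocyte/macrophage cells, and the intervals of Tlr2, Tlr7, Tlr13 and Myd88 there spanned 0. Comparisons that share a library, such as ligation against sham in KO and KO against WT after sham, share its counting error and its preparation.

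**Figure D5:**
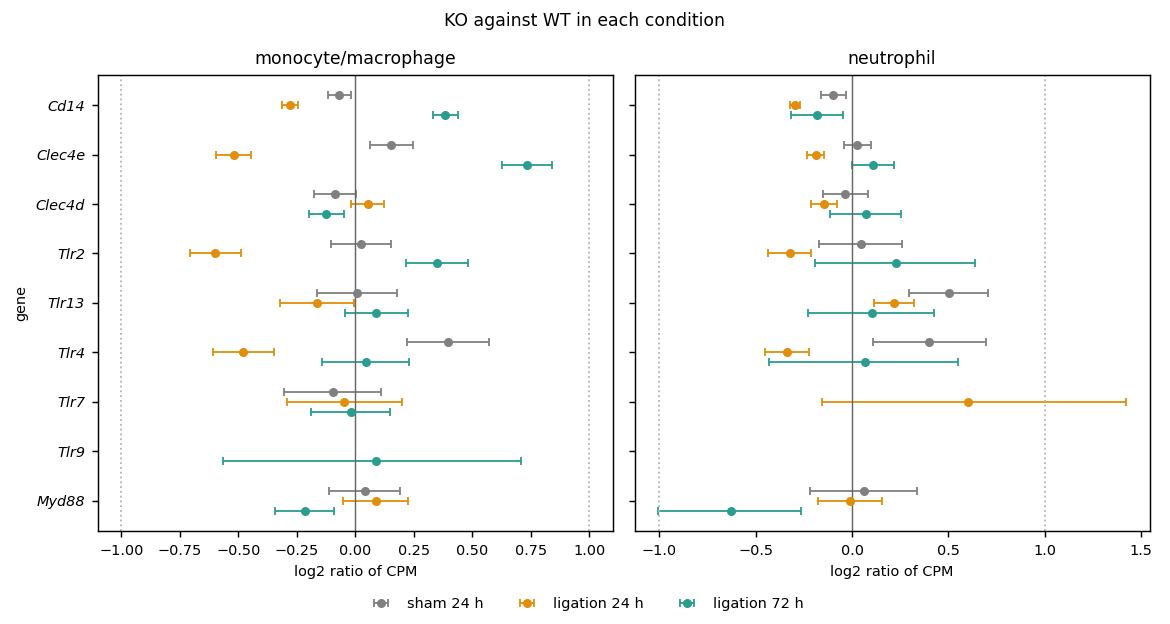
Log2 ratio of CPM in KO against WT (x axis) for each measured gene (rows) in monocyte/macrophage cells and neutrophils, after sham and at ligation 24 h and 72 h, with exact 95% counting intervals and dotted lines at 2-fold. Tlr2, Tlr4, Clec4e and Cd14 lie left of 0 at ligation 24 h in both classes, and no point lies past 2-fold.

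The rest of the pathway was followed with 64 genes in 8 lists: ligands, other Toll-like receptors, co-receptors and chaperones, adaptors and kinases, inhibitors, other C-type lectins, lectin signalling genes and transcription factors. At ligation 24 h against sham in monocyte/macrophage cells, 2 of 58 measured genes in WT were at least 2-fold higher and 1 lower, and in KO 1 of 59 was higher and 3 were lower, where 6.5% and 8.36% of all genes passed 2-fold. The calprotectin gene S100a8, a Toll-like receptor 4 ligand and also a neutrophil marker, had the highest ratio in both genotypes, 2.36 in WT and 1.42 in KO on the log2 scale. S100a9 had 2.15 in WT. Both genes belong to the neutrophil marker list. In these cells the markers of that list together had 554 CPM after sham and 2232 CPM at ligation 24 h in WT. In KO they had 791 and 1845 CPM. How much of the S100a8 and S100a9 ratios came from neutrophil RNA was not tested. Cd180, an inhibitor of Toll-like receptor 4, had the lowest in WT at -1.31. Among the 7 other C-type lectins Clec4n (dectin-2) had the highest, 0.85 and 0.93. The adaptor and kinase list had none of 12 genes past 2-fold in either genotype, with medians of -0.10 and -0.31, close to the -0.12 and -0.27 of all genes.

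In neutrophils at ligation 24 h, 3 of 46 pathway genes in WT were at least 2-fold higher and 4 lower, and in KO 1 of 49 was higher and 2 were lower, where 13.4% and 6.24% of all genes passed 2-fold. Clec12a, an inhibitory lectin, had the highest ratio, 2.53 in WT and 1.28 in KO. Traf6, the ubiquitin ligase downstream of MyD88, was at 1.52 in WT and 0.14 in KO. The lowest ratios were those of the fibronectin gene Fn1 in WT, at -1.76, and of the scavenger receptor gene Cd36 in KO, at -2.73.

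At 72 h against 24 h in monocyte/macrophage cells, 5 of 60 pathway genes in WT were at least 2-fold higher and 11 lower, and in KO 4 of 59 were higher and 7 lower. Of all genes there, 11.2% were higher and 7.33% lower in WT, and 6.84% and 3.5% in KO. Among danger ligands 5 of 9 measured genes were lower in WT and 3 of 9 in KO, with 1 higher in each. Vcan was the lowest at -3.99 and -2.34, and Bgn the highest at 2.28 and 3.98. S100a8 and S100a9 were lower in both genotypes. The neutrophil markers together had 2232 CPM at 24 h and 335 CPM at 72 h in WT, and 1845 and 575 CPM in KO. Among co-receptors and chaperones Unc93b1, which carries the endosomal receptors, had the highest ratio, 1.07 in WT and 0.75 in KO. Irf7, an interferon-induced factor downstream of Tlr7 and Tlr9, was at 2.36 and 1.11, and Cd180 at 2.01 and 1.69. Cebpb, an inflammatory transcription factor gene, was the lowest of the factors, at -2.61 and -1.82. Malt1, which works with Card9 and Bcl10, was at -2.28 in WT and -0.39 in KO. In neutrophils 7 of 47 pathway genes in WT were higher and 6 lower, and 7 of 49 in KO were higher and 5 lower. Of all genes there, 2081 of 6394 were higher and 433 lower in WT, and 2025 of 6967 higher and 376 lower in KO. The C-type lectin gene Clec4a3 had the highest ratio of all lists, 3.04 in WT and 2.65 in KO. The lowest were Clec12a in WT, at -2.37, and Tlr8 in KO, at -2.21. Among the transcription factors the highest and lowest were Irf7 at 2.02 and 1.38 and Cebpb at -1.88 and -1.42.

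Between genotypes 0 to 4 pathway genes passed 2-fold in a class and condition. Among monocyte/macrophage genes 2 of 59 did after sham (Bgn and S100a9, both higher in KO), 2 of 58 at ligation 24 h (Malt1 at -1.34 and Tnfaip3 at -1.16), and 3 of 60 at 72 h (Bgn and Hspa1a higher, Irf7 lower at -1.19). In neutrophils 0 of 45, 4 of 52 and 0 of 42 did. Over all genes, 2.16%, 1.81% and 2.41% passed 2-fold in the former class, and 1.06%, 3.25% and 1.48% in the latter. Hspa1a has a near-identical copy, so its UMIs could be split.

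Genes with the most similar profiles were sought by Pearson's r of log2(CPM + 10) over 54 class-by-library sums and 11354 genes, as a description only, since the sums share 6 libraries, their depths and the cell classes. For Clec4e they were Il1rn, the interleukin-1 receptor antagonist, with r = 0.96, and Tlr13 with 0.95. For Tlr13 they were Bst1 and Ptafr, both 0.96, and for Cd14 Bst1 with 0.96 and Ccr1 with 0.95. Clec4d was closest to Slpi, a secreted protease inhibitor, with 0.94 and Lst1 with 0.92. Tlr2 was closest to Rab32 and Igsf6, both 0.94, and Tlr4 to Fgd4 with 0.89 and Padi4, the histone-citrullinating enzyme, with 0.88. Tlr7 stood with Folr2, a resident-macrophage marker, and Aoah, both 0.84. Tlr9 stood with the MHC class II gene H2-Eb1 at 0.78 and Ly86 at 0.77, and Myd88 with Cd300a at 0.86 and Atp6ap2 at 0.85.

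By source, monocyte/macrophage cells gave 23.1% to 47.2% of all Clec4e UMIs of a library and neutrophils 34.0% to 73.7%. For Tlr7, monocyte/macrophage cells gave 74.8% to 97.1%. At ligation 24 h neutrophils gave 56.6% (WT) and 57.8% (KO) of the Cd14 UMIs, and at 72 h 14.0% and 9.78%. These shares move with the number of cells of each class as well as with the level per class. The 74.8% of Tlr7 was KO at ligation 72 h, where 38.2% of kept cells were unnamed. The UMIs of those cells count in the total of a gene but in neither class.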

How the data were processed

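Per the file headers, the deposited matrices came from Cell Ranger 6.0.0 and hold raw UMI counts, and per the submitters' processing notes the build was mm10. No later filter is given in the sources used here. Every deposited cell held at least 500 UMIs. Of 32285 genes, 32235 were matched by identifier to GENCODE M21. Cells with under 200 genes or over 20% mitochondrial UMIs were left out, and the highest doublet scores were removed at 0.8% per 1000 cells. Cells were clustered with scanpy 1.11.5 and leidenalg 0.10.2 (2000 variable genes, 30 components, 20 neighbours, resolution 1, no batch correction), without the genes described here, their pathway lists and Trpm4 among the variable genes. The 36 clusters were named from fixed markers, and a cluster led by markers of another class stayed unnamed, so class shares rest on rebuilt names. Counts were summed per class and library. CPM have exact Poisson intervals, and ratios the exact conditional interval of 2 counts. Known ratios were recovered in simulated Poisson counts, which follow the model of the interval and hold no spread between cells or mice. That check covers the calculation only. A count of 0 was set to 3 counts in ratios. All pathway genes past 2-fold were counted. The text names the highest or lowest ratio of some lists only, with some other genes chosen after their values were seen. The genes and lists were chosen with earlier results of these data known. Results were recomputed under 11 other settings and 2 more chosen after seeing the data (naming unnamed clusters by their best score, and leaving out the cycling cluster). The closing section counts the values that moved and names the settings that moved a median or a count or turned a sign past 2-fold.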

Additional observations from a re-analysis of the deposited data

Results flagged for a closer look

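In 2 results the ratios of the 2 genotypes had opposite signs, with counting intervals that exclude 0 in each. These differences between WT and KO were not tested. For Tlr2 in monocyte/macrophage cells, ligation 24 h against sham gave a log2 ratio of 0.47 in WT and -0.15 in KO, a difference of -0.62; relative to the median gene the KO ratio was 0.12, and after thinning to 1300 UMIs a cell 0.13. For Cd14 in fibroblasts, ligation 72 h against 24 h gave -3.18 in WT and 1.88 in KO, a difference of 5.06. The second rests on the KO fibroblasts at 72 h, whose 145 CPM of Cd14 came with 2519 CPM of neutrophil markers and 10860 CPM of macrophage markers. At the myeloid cells' own ratios those markers would bring 148 CPM of Cd14, a sum that exceeded the measured value in all 6 fibroblast libraries.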

How the results depend on the processing

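Depth limits Tlr9, Tlr7 in neutrophils and all values of the KO library at ligation 72 h. Of 175 medians recomputed, 163 stayed within a set margin of the main value. That margin was the median distance from centre to end of the single-gene counting intervals. No interval of a median was computed. Without doublet removal the neutrophil median at 72 h against 24 h was -0.73 in WT and -0.67 in KO. With a mean over cells the monocyte/macrophage median in KO was -0.45. Thinning to 1300 UMIs gave monocyte/macrophage medians of -0.61 in WT and -0.81 in KO at 72 h against 24 h, and of -0.23 for KO against WT at 72 h, which changes sign. Relative to the median gene, ligation 24 h against sham gave 0.57 in WT neutrophils, 0.27 in KO monocyte/macrophage cells and 0.10 in KO neutrophils, the latter 2 changing sign, and 72 h against 24 h gave -1.58 in WT and -1.69 in KO neutrophils. A floor of 100 UMIs gave -0.78 for WT monocyte/macrophage cells at 72 h against 24 h. Of 2057 single-gene values, 1985 kept their sign, and 191 moved out of the counting interval of the main value. Thinning to 1300 UMIs moved 56 of 122, and the ratio relative to the median gene 45 of 175. A mean over cells moved 38 of 175, and leaving out doublet removal 36 of 175. Best-score naming of unnamed clusters moved 6 of 175 single-gene values, and leaving out the cycling cluster 6 of 59, and neither moved a median. Among ratios past 2-fold, the sign turned for Cd14 at ligation 24 h against sham in WT endothelial cells, from 1.21 to -0.014 at resolution 0.5, and for Clec4d at 72 h against 24 h in KO endothelial cells, from 1.02 to -0.69 without doublet removal. Counts of genes past 2-fold moved by over 1.5 times in these cases. In WT monocyte/macrophage cells at 24 h against sham the count was 0, and it was 1 without doublet removal, with a mean over cells, after thinning and with a floor of 20 UMIs, and 2 relative to the median gene. Relative to the median gene it was also 2 in WT neutrophils and 1 in KO monocyte/macrophage cells. At 72 h against 24 h it was 3 in KO neutrophils without doublet removal, and 1 in KO monocyte/macrophage cells with a mean over cells and with a floor of 100 UMIs. For KO against WT at ligation 24 h it was 1 in monocyte/macrophage cells with a floor of 20 UMIs. The cause of these moves was not tested. No paired analysis was run within a comparison, because each sets 1 library against 1 other. Pairs of KO and WT libraries over the 3 conditions were not tested.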
